A study of Mus musculus with 22 samples.

Results

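Osterix (*Sp7*) is the transcription factor that commits mesenchymal precursors to the osteoblast lineage, and a Cre driven from its promoter marks, through a TdTomato reporter, every cell that has expressed the driver and the descendants of such cells. Tumor stroma outside the skeleton holds fibroblasts, pericytes and endothelial cells, of which the fibroblasts and pericytes build the collagen-rich matrix and the vessel wall. The comparison described here asked how CD45- stromal cells marked by this reporter, called TdTOSX single positive (TdTOSX+;CD45-), differed in their RNA from the unmarked CD45- cells of the same kind of tumor, called double negative (TdTOSX-;CD45-). It rests on 10 of the 22 libraries of the series, chosen by their titles alone: 4 libraries of TdTOSX single positive cells (2 labelled wild type, WT, and 2 labelled Cdh2-cKO) and 6 of double negative cells (3 WT and 3 Cdh2-cKO).

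All mice were C57BL/6 at postnatal day 56 and carried the Osx-cre transgene with the Ai9 TdTomato reporter, the WT mice included, and the Cdh2-cKO mice were labelled as a conditional knockout of *Cdh2*. The labels name 4 WT and 6 Cdh2-cKO inoculated mice, from which cell preparations with intact RNA (average RIN 8.95) were kept. The tumors are described as orthotopic MMTV-BO1 tumors on the samples and as subcutaneous in the design of the series. The driver is a Tet-off transgene, so marking depends on the time without doxycycline, and a marked cell need not express *Sp7* when it is sorted. Total counts ran from 16594228 to 26784003 per library, and 14341 genes were tested.

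The targeted gene was not lower in the libraries labelled Cdh2-cKO. *Cdh2*, which encodes N-cadherin, was at 9.48 and 5.79 CPM (the count relative to the total count of its library, on the usual scale) in WT single positive replicates 1 and 2, and at 18.7 and 14.8 CPM in the corresponding libraries labelled Cdh2-cKO. In double negative cells it was at 7, 7.97 and 4.58 CPM in the WT libraries and at 14.3, 21.5 and 16.8 CPM in those labelled Cdh2-cKO. In both populations every library labelled Cdh2-cKO was thus above every WT library, with a log2 difference of 1.25 (standard error 0.233). The edgeR p was 0.000339 unadjusted and 0.543 adjusted over all genes tested. That test counts the libraries as separate, though those with the same replicate number may share a source. If the Osx-cre transgene made the knockout, unmarked double negative cells need not have lost *Cdh2*, and only the single positive libraries bear on it. Whole-gene counts hold reads from all exons and do not show which exons were read, so the genotype is used below only as it is labelled. Between the populations *Cdh2* differed by 0.05 on the log2 scale (standard error 0.234), and the sign of that difference turned under several settings. *Sp7* had no counts in any single positive library and 1 count in each of 2 WT double negative libraries, which is below the 3 counts taken as the limit of detection (0.112 to 0.181 CPM in these libraries). The TdTomato transcript was not analysed here.

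Leukocyte RNA was present in both CD45- populations, in amounts that differed widely between libraries. The summed CPM of 20 pan-leukocyte genes, as a percentage of the mean over the 12 CD45+ libraries of the series, was 3.75 and 20.2 in the WT single positive libraries and 43.6 and 21.2 in the Cdh2-cKO single positive libraries. In double negative cells it was 3.20, 11.7 and 63.8 in WT and 3.91, 4.06 and 5.42 in Cdh2-cKO libraries. Single positive cells were higher by 1.08 on the log2 scale, which an exact two-sided permutation test over 210 arrangements did not separate from the spread between libraries (p = 0.314, the smallest possible being 0.00476). In all 4 pairs of libraries that shared genotype and replicate number the single positive library held more, by 1.17 to 11.2 times. WT double negative replicate 3, at 63.8%, stood apart from the other 5 double negative libraries.

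*Ptprc*, the gene of CD45, also varied widely between libraries. It was at 2.54 and 90.6 CPM in WT and 179 and 101 CPM in Cdh2-cKO single positive cells, against 5.19, 41.2 and 342 CPM in WT and 10.7, 18.3 and 12.8 CPM in Cdh2-cKO double negative cells. In pair WT 1 it was lower in the single positive library, where the summed leukocyte level was slightly higher. The CD45+ libraries held between 399 and 1840 CPM. The 14 macrophage genes summed to between 255.6 and 16920 CPM in single positive and between 420.1 and 23060 CPM in double negative libraries. None of the 14 passed the test between the populations when genotype was the only other term. In bulk libraries fewer cells of a type and less RNA per cell cannot be told apart.

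**Figure D1:**
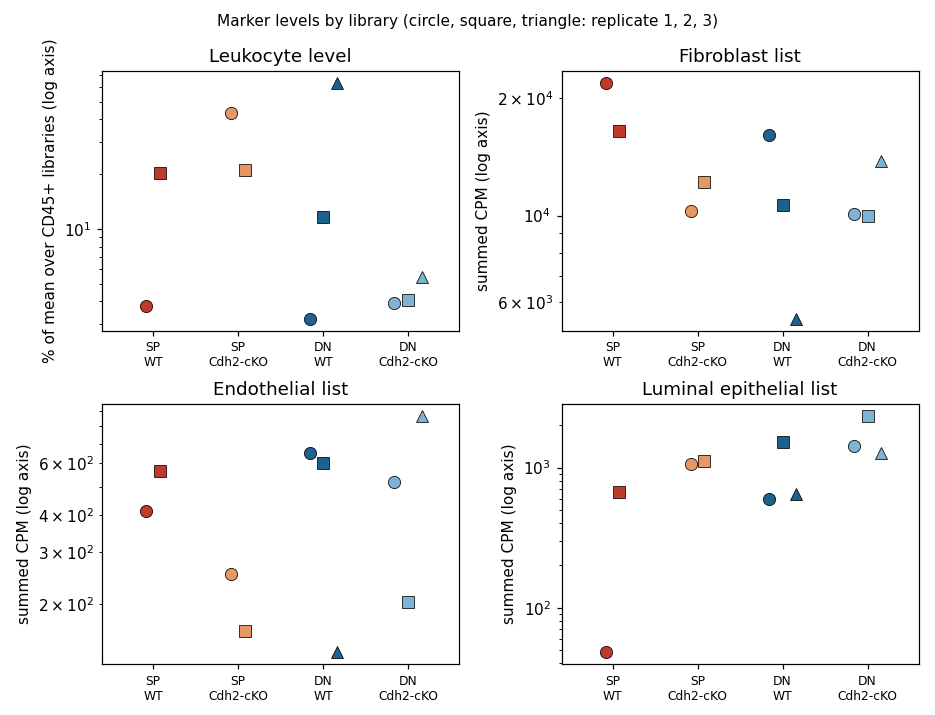
Marker levels in each of the 10 libraries on log axes, by population (SP, TdTOSX single positive; DN, double negative) and labelled genotype: the leukocyte level as a percentage of the mean over the CD45+ libraries, and the summed CPM of the fibroblast, endothelial and luminal epithelial lists. Single positive and double negative libraries overlap in all 4 panels, and leukocyte levels run from 3.20 to 63.8%.

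The other cell types were measured in the same way. The 20 fibroblast genes summed to 21950, 16460, 10280 and 12180 CPM in the single positive libraries (WT 1, WT 2, Cdh2-cKO 1 and Cdh2-cKO 2) and to 16060, 10630 and 5430 CPM in the WT and 10110, 9988 and 13790 CPM in the Cdh2-cKO double negative libraries. The difference of 0.48 on the log2 scale did not pass the same permutation test (p = 0.186), although the single positive library was higher in all 4 pairs. Both populations therefore carried a fibroblast profile, with *Dcn* (decorin) at 1050 to 3970 CPM and 746 to 3470 CPM. *Pdpn*, a fibroblast marker gene, was listed at 0 in every library.

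Endothelial genes, the second CD45- stromal class, summed to 162.5 to 567.0 CPM in single positive and 137.3 to 869.1 CPM in double negative libraries (log2 difference -0.40, exact permutation p = 0.529). Luminal epithelial genes summed to 48.12, 667.2, 1055 and 1105 CPM in single positive libraries and to 600.8 to 2335 CPM in double negative libraries (log2 difference -1.40, exact permutation p = 0.129). Without WT single positive replicate 1, which held 48.12 CPM, the epithelial difference was -0.34 (exact permutation p = 0.488). The sums of both lists were lower in the single positive library of all 4 pairs, although 7 of the 12 luminal epithelial genes tested had a positive log2 fold change (median 0.33). *Krt8*, a simple-epithelial keratin, was present in all 10 libraries at 9 to 481 CPM, while *Epcam* was at most 2.07 CPM. The study used a GFP-labelled breast cancer line and sorted the GFP+ tumor cells away. CD45+ libraries held 187 to 480.6 CPM of the luminal epithelial list. *Cdh1* had medians of 207 CPM in double positive (TdTOSX+;CD45+) and 155 CPM in CD45 single positive (TdTOSX-;CD45+) libraries, and *Krt8* 9.36 and 15.4 CPM. In CD45- libraries *Cdh1* was highest in WT double negative replicate 3, at 119 CPM. The part of RNA from remaining tumor cells in the epithelial values was not tested, and that from leukocytes not beyond the fits given below. *Adipoq* and *Pax7*, defining markers of adipocytes and muscle satellite cells, had no counts in single positive libraries, and *Sox10*, of Schwann cells, reached 1.99 CPM in 1 single positive library.

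With population and genotype as terms, edgeR's quasi-likelihood test with Benjamini-Hochberg adjustment called 4 genes higher in single positive cells (0.0279% of the genes tested) and 0 lower (0%). At an unadjusted p under 0.05 there were 991 higher and 1406 lower genes. The limma test with sample quality weights (voom), the study's method but here with the contrast of these 2 populations in 10 libraries, called 75 genes higher (0.523%) and 43 lower (0.3%), and DESeq2 called 311 (2.17%) and 469 (3.27%). With a log2 fold change of at least 2 required as well, 2 genes were called in the main test (0.0139%). The 4 genes were *Duoxa2*, *Pigx*, *Mrps34* and *Ddost*. In each of them every single positive library was above every double negative library, as in 2.33% of all genes tested.

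*Duoxa2* (ENSMUSG00000027225, chromosome 2, 122298900 to 122302885 on GRCm38, plus strand), which encodes the maturation factor of the hydrogen peroxide-producing oxidase DUOX2, was the gene that differed most clearly. It was at 69.6 and 36.6 CPM in the WT and 20 and 57.6 CPM in the Cdh2-cKO single positive libraries. In double negative cells it was at 1.76, 0.982 and 1.67 CPM in WT and 0.723, 1.30 and 0.889 CPM in Cdh2-cKO libraries. The groups lay far apart, at 45.9 ± 22 CPM (SD, n = 4) and 1.22 ± 0.429 CPM (SD, n = 6), a ratio of means of 37.6. On the log2 scale the difference was 5.19 (standard error 0.370, edgeR adjusted p = 0.00119), with 5.08 in WT and 5.29 in Cdh2-cKO mice. The call did not rest on a single library, since dropping any 1 of the 10 gave an adjusted p of 0.00114 to 0.012. In the CD45+ libraries of the series the same contrast called *Duoxa2* and no other gene (0.00773% higher, 0% lower).

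None of the other members of the DUOX system was called. *Duox1*, the sister oxidase of DUOX2, had a positive difference: it was at 3.81, 4.45, 0.635 and 4.99 CPM in single positive and 0.558 to 3.31 CPM in double negative cells, which overlapped (log2 fold change 1.04, standard error 0.618, adjusted p = 0.426; 1.64 and 0.0977 with the leukocyte level as a covariate). *Duox2* itself, the partner enzyme, had 18 counts over the 4 single positive and 35 over the 6 double negative libraries and was too low to be tested. *Duoxa1* was at 4.44 to 9.16 CPM in single positive and 2.32 to 16.9 CPM in double negative cells (log2 fold change -0.39, standard error 0.496, adjusted p = 0.722). The exons of *Duoxa2* and *Duoxa1* overlap on opposite strands over 682 of the 1592 exonic bases of *Duoxa2* (42.8%). The library kit does not mark strand, so reads in that stretch could not be assigned to either gene and were left out of the counts.

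*Mrps34*, which encodes a protein of the small subunit of the mitochondrial ribosome, was at 6.72 and 7.47 CPM in WT and 11.2 and 10.3 CPM in Cdh2-cKO single positive libraries. In double negative libraries it was at 0.481, 0.273 and 0.558 CPM in WT and 0.723, 2.03 and 1.48 CPM in Cdh2-cKO. On the log2 scale the difference was 3.40 (standard error 0.374, adjusted p = 0.0205). Of its 2064 exonic bases 77.8% overlap other genes (*Nme3* and *Mapk8ip3*), and *Nme3* was listed at 0 in all 10 libraries, so its count rests on the remainder. *Mapk8ip3* did not separate the populations, at 15.2 to 32.3 CPM and 18.1 to 37.3 CPM.

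*Pigx*, a subunit of the enzyme that adds the first mannose to the glycosylphosphatidylinositol anchor of membrane proteins, was at 25.6, 27.9, 30.2 and 34.2 CPM in single positive libraries. In double negative libraries it ranged from 9.5 to 14.5 CPM. On the log2 scale the difference was 1.23 (standard error 0.129, adjusted p = 0.0205). *Ddost*, a subunit of the complex that attaches N-glycans to proteins in the endoplasmic reticulum, was at 285, 218, 298 and 318 CPM against 60.5 to 142 CPM, with 1.42 on the log2 scale (standard error 0.175, adjusted p = 0.0430). Double positive and CD45 single positive libraries held medians of 36.9 and 29.8 CPM of *Pigx*, 7.45 and 5.11 CPM of *Mrps34*, and 203 and 140 CPM of *Ddost*. With the leukocyte level as a covariate *Pigx* had 1.24, *Mrps34* 3.44 and *Ddost* 1.55 (edgeR adjusted p of 0.00947, 0.00947 and 0.00462). The part of leukocyte RNA in the differences of *Pigx*, *Mrps34* and *Ddost* was not tested further. The calls of these 3 genes were less firm than that of *Duoxa2*: with 1 library left out the adjusted p reached 0.134 for *Pigx*, 0.121 for *Mrps34* and 0.244 for *Ddost*, and the only library whose absence kept all 3 calls was WT double negative replicate 3 (*Mrps34* also kept its call without Cdh2-cKO double negative replicate 2).

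**Figure D2:**
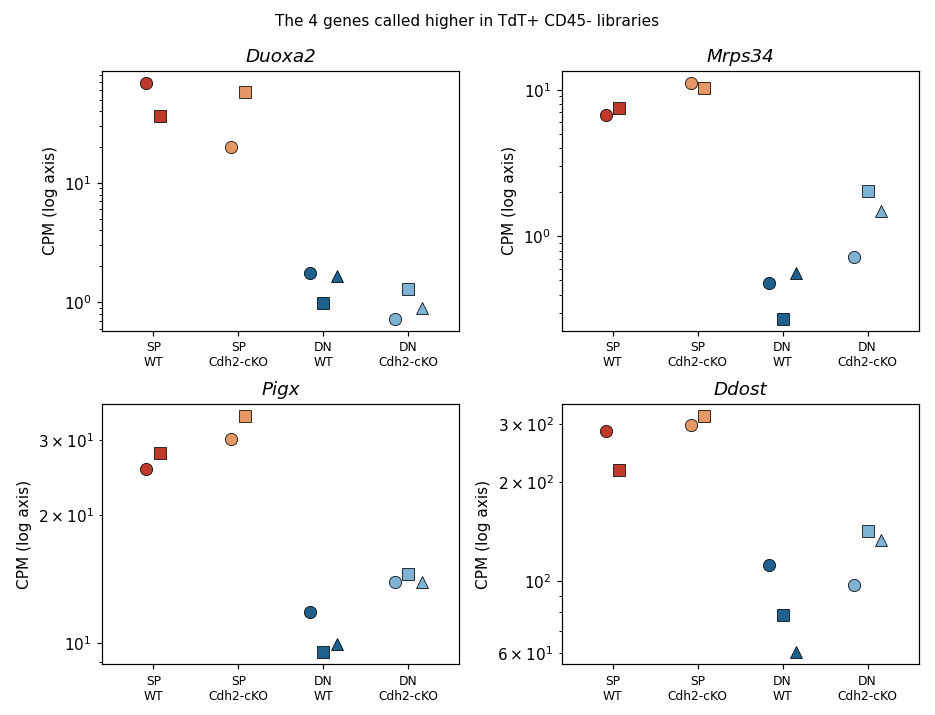
CPM of *Duoxa2*, *Mrps34*, *Pigx* and *Ddost* in each of the 10 libraries on log axes, by population (SP, TdTOSX single positive; DN, double negative) and labelled genotype, with replicates 1, 2 and 3 as circle, square and triangle. In each panel all 4 single positive libraries lie above all 6 double negative libraries, and the gap is widest for *Duoxa2*, at 20 CPM or more against 1.76 CPM or less.

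The next genes in order of p were not called with genotype as the only other term. On the higher side these were *Ncln* (log2 fold change 1.31, adjusted p = 0.0759), *Emc10* (1.07, 0.100) and *Fkbp1a* (1.09, 0.104), whose products sit at or near the endoplasmic reticulum membrane or fold proteins, *Cox5a* of respiratory complex IV (2.26, 0.100), *Junb* of the AP-1 transcription factors (1.62, 0.100) and *Fam53a* (1.41, 0.100). *Cox5a* was at 50.6, 65.1, 109 and 108 CPM in single positive cells and at 6.39 to 37.8 CPM in double negative cells. CD45+ libraries held *Cox5a* at medians of 135 CPM (double positive) and 106 CPM (CD45 single positive). *Junb* was at 92.7, 84.4, 75.8 and 69.8 CPM against 14.6 to 39.8 CPM. Neither gene overlapped between the populations, as was the case for 334 genes above and 308 genes below in single positive cells, or 2.33% and 2.15% of the genes tested.

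On the lower side the first 10 genes all had an adjusted p of 0.104. *Rpl4*, of the large ribosomal subunit, was at 1660, 1910, 2070 and 2240 CPM in single positive and at 2380 to 3860 CPM in double negative cells (log2 fold change -0.76, standard error 0.135). Several of the others belong to the making of ribosomes or of protein: the nucleolar proteins *Nifk* (-0.71), *Gtpbp4* (-0.81) and *Nop58* (-0.84), and the leucyl-tRNA synthetase *Lars* (-0.79). The remaining genes were the nuclear RNA-binding protein *Hnrnpc* (-0.65), the co-repressor *Tle1* (-1.20), the deubiquitinase *Usp11* (-1.30), the basement membrane collagen *Col4a5* (-1.62) and *Efcab7* (-1.52). *Tle1* was at 8.74 to 10.8 CPM in single positive and 12.7 to 26.6 CPM in double negative cells.

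A difference between the genotypes in the effect of the TdTomato mark was not detected. The interaction was called for 0 of 14341 genes (0%) by edgeR, where 884 genes had an unadjusted p under 0.05, by voom for 0, and by DESeq2 for 67. The 3 genes with the smallest p, *Pld5*, *Hs3st5* and *Nipal3*, had an adjusted p of 0.584. *Pld5* was at 0 and 0.0432 CPM in WT and at 6.46 and 2.62 CPM in Cdh2-cKO single positive cells, against 2.62 to 5.42 CPM in double negative cells of both genotypes. The pan-leukocyte genes had a median log2 fold change of -1.52 in WT and 3.40 in Cdh2-cKO mice, with an interaction for *Ptprc* at an adjusted p of 0.782. The WT group includes double negative replicate 3, at a leukocyte level of 63.8%, and in the WT pairs 1 and 2 the single positive library held 1.17 and 1.73 times more.

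Leukocyte RNA varied between libraries, and libraries with the same replicate number may share a source, which the labels do not state. The comparison was therefore repeated with the leukocyte level or the replicate number as a term. With the log2 leukocyte level as a covariate, edgeR called 902 genes higher (6.29%) and 554 lower (3.86%). With the replicate number within each genotype as a block it called 536 genes higher (3.74%) and 424 lower (2.96%). Double negative replicate 3 of each genotype had no single positive partner, so the block fit estimated the difference from 4 pairs. That estimate took nothing from WT double negative replicate 3, at a leukocyte level of 63.8%. The 2 fits shared 302 higher and 188 lower genes and no gene in opposite directions, which was 33.7% of the calls with the covariate and 51.0% of those with the block. With the block and the covariate in the same fit, all 490 shared genes kept their direction and 40 were called, within 29 higher (0.202%) and 91 lower (0.635%) genes in all.

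These larger counts depended on single libraries. Without TdTOSX single positive WT replicate 1 the covariate fit called 221 genes in all, without single positive Cdh2-cKO replicate 2 it called 374, and without double negative WT replicate 3 it called 504. Leaving out double negative WT replicate 2 gave 622 genes, leaving out replicate 1 of the Cdh2-cKO double negative or single positive cells gave 768 and 875, and leaving out double negative Cdh2-cKO replicate 2 gave 900. The block fit called at most 17 genes without either library of the pairs WT 1, WT 2 or Cdh2-cKO 2, and 865 or 786 without a library of the pair Cdh2-cKO 1. The genes below are therefore described with their values in every library, and "higher" or "lower" with the covariate or the block refers to that fit only.

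**Figure D3:**
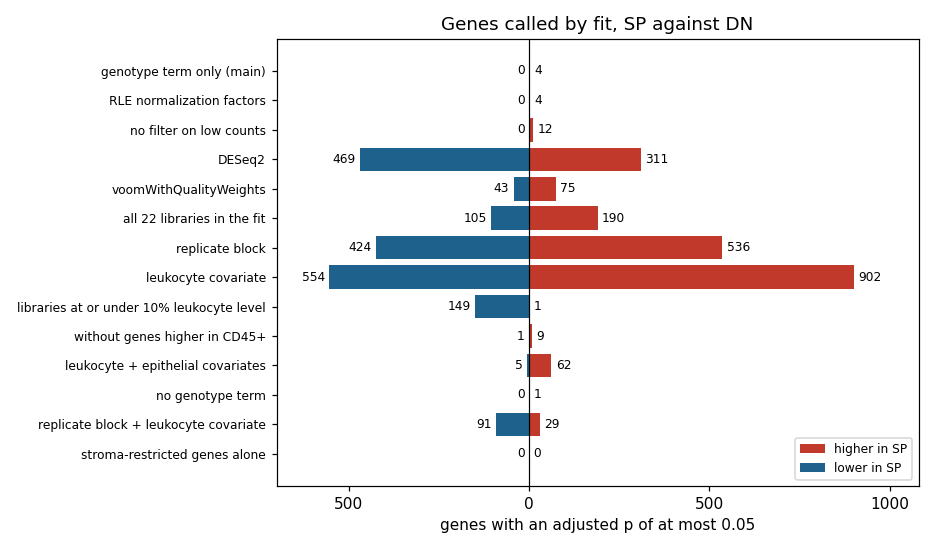
Number of genes with an adjusted p of at most 0.05 in each fit of TdTOSX single positive (SP) against double negative (DN) cells, higher to the right (red) and lower to the left (blue). With genotype as the only other term 4 genes are higher and 0 lower, and the leukocyte covariate gives the longest bars, 902 and 554.

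The fibrillar collagens, which form the fibers of the interstitial matrix, were higher in single positive cells in every pair of libraries. Summed over 11 genes they were at 59950 and 32820 CPM in WT and 14380 and 31980 CPM in Cdh2-cKO single positive cells, and at 34860, 8266 and 3546 CPM in WT and 8949, 9510 and 15210 CPM in Cdh2-cKO double negative cells. The single positive library was 1.61 to 3.97 times higher in the 4 pairs, although the populations overlapped. All 9 genes tested had a positive log2 fold change, with a median of 1.24 against 0.01 over all genes. None of the 9 passed the test with genotype alone. With the block 5 were higher (3.74% of all genes tested were) and with the leukocyte covariate 8 (6.29% of all genes). None was called by voom, by DESeq2 or with the block and the covariate together.

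*Col1a1*, the main chain of type I collagen, was at 23200 and 11700 CPM in WT and 6060 and 11100 CPM in Cdh2-cKO single positive cells. In double negative cells it was at 11600, 2810 and 1240 CPM in WT and 3070, 3620 and 6520 CPM in Cdh2-cKO libraries. Its log2 fold change was 1.36 with genotype alone (standard error 0.541, adjusted p = 0.256), 1.39 with the block (standard error 0.183, adjusted p = 0.0195) and 2.08 with the leukocyte covariate (standard error 0.316, adjusted p = 0.0129). *Col1a2* had 1.39 with the block and 2.24 with the covariate (adjusted p of 0.0456 and 0.0129) and *Col5a2* 1.24 and 1.93 (0.0239 and 0.0129). *Col3a1*, of type III collagen, was called only with the covariate (1.83, adjusted p = 0.0129), with an adjusted p of 0.0764 under the block.

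**Figure D4:**
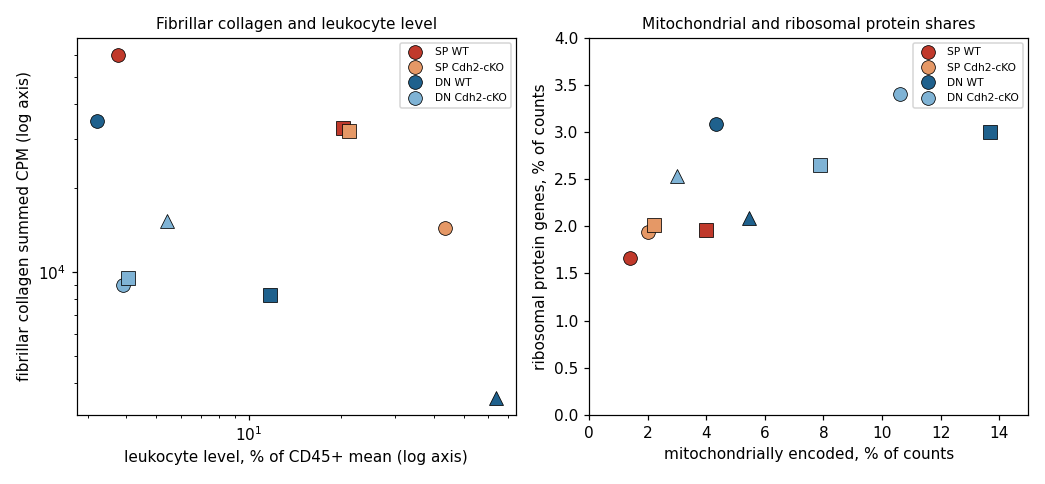
Left, summed CPM of the fibrillar collagen genes against the leukocyte level (log axes); right, ribosomal protein genes against mitochondrially encoded genes, both as a percentage of all counts. Each point is a library (circle, square and triangle for replicates 1, 2 and 3); at similar leukocyte levels near 20% the 2 single positive (SP) libraries hold 32820 and 31980 CPM of collagen, and all 4 SP libraries lie at or under 2.01% ribosomal protein counts while all 6 double negative (DN) libraries lie at or above 2.09%.

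Other matrix genes were called in part. Of 19 matricellular genes tested, which encode secreted proteins that modulate the contact of cells with the matrix, all 19 had a positive log2 fold change (median 0.80). With genotype alone 0 passed, with the block 8 and with the covariate 9, 7 of them in both. Of all 14341 genes tested 302 were higher in both. With the block and the covariate together 0 were called, by voom 0 and by DESeq2 2. Over all genes tested 3.74% were higher with the block and 6.29% with the covariate. *Tnc* (tenascin C) was at 3690, 1280, 1480 and 2970 CPM in single positive and 296 to 1990 CPM in double negative libraries, with a log2 fold change of 1.11 with genotype alone (adjusted p = 0.340), 1.13 with the block (0.0210) and 1.68 with the covariate (0.0176). *Postn* (periostin) had 0.80 (0.469), 1 (0.0338) and 1.31 (0.0418). *Smoc2*, a calcium-binding matrix protein, was at 83.4, 64.7, 26.7 and 81.9 CPM against 6.82 to 33.6 CPM, with 1.73 (0.170), 1.78 (0.0327) and 2.22 (0.0136). *Ccn2*, connective tissue growth factor, had 1.46 (0.192), 1.34 (0.0285) and 2.11 (0.0129), and *Sparc*, the most abundant of the list at 3360 to 32500 CPM, was called with the covariate (1.09, 0.0279) and not with the block (0.34, 0.198).

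Among 23 matrix proteases and inhibitors 0 passed with genotype alone, and 19 had a positive log2 fold change (median 0.46). With the block 8 were higher and with the covariate 11, where 3.74% and 6.29% of all genes tested were. Block and covariate together gave 0 calls, voom 1 and DESeq2 1. *Adamts4*, an aggrecanase, was at 347, 115, 96.6 and 182 CPM in single positive and 17.6 to 155 CPM in double negative cells, and *Mmp2*, the gelatinase A gene, at 1110, 704, 336 and 352 CPM against 123 to 650 CPM. Both were higher with the block (*Adamts4* 0.99, adjusted p = 0.0208, and *Mmp2* 0.95, 0.0284) and with the covariate (1.86, 0.0129, and 1.31, 0.0372). The membrane protease *Mmp14* was called with the covariate alone (1.19, adjusted p = 0.0129). Of 9 small leucine-rich proteoglycans 1 was higher with the block and 4 with the covariate, with *Bgn* (biglycan) in both (0.83 and 1.35, adjusted p of 0.0250 and 0.0260). Basement membrane genes were mixed: of 20, 1 was higher and 3 lower with the block, and 5 higher and 1 lower with the covariate. Of all genes tested 2.96% were lower with the block and 3.86% with the covariate. *Col4a5* was lower in both fits (-1.70, adjusted p = 0.0278, and -1.72, 0.0158), at 2.65, 3.15, 9.56 and 6.89 CPM against 7.43 to 22.1 CPM.

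Genes of pericytes and smooth muscle, the contractile cells of the vessel wall, had a positive log2 fold change in 15 of 15 members (median 0.96). None passed with genotype alone, 7 were higher with the block, 11 with the covariate and 2 with the 2 terms together. Of all genes tested 3.74% were higher with the block, 6.29% with the covariate and 0.202% with the 2 terms together. Voom called 0 of the 15 and DESeq2 2. *Cspg4*, the NG2 proteoglycan of pericytes, was at 115 and 94 CPM in WT and 78.4 and 102 CPM in Cdh2-cKO single positive cells and at 52.5, 35.6 and 25.1 CPM in WT and 24.3, 45.2 and 66.5 CPM in Cdh2-cKO double negative cells. Its populations did not overlap, and 2.33% of all genes tested likewise lay above without overlap. Its log2 fold change was 1.20 (adjusted p = 0.131), 1.32 with the block (0.0181) and 1.37 with the covariate (0.0141). CD45+ libraries also held *Cspg4*, at medians of 49.8 CPM (double positive) and 57 CPM (CD45 single positive), and the part of leukocyte RNA in its difference was not tested beyond the covariate. *Pdgfrb*, the PDGF receptor of pericytes and fibroblasts, was at 830, 410, 269 and 522 CPM against 54.4 to 409 CPM, with 1.13 (0.301), 1.09 (0.0181) and 1.71 (0.0129). *Acta2*, alpha smooth muscle actin, had 0.85 (0.405), 0.71 (0.0340) and 1.49 (0.0261), and *Des* (desmin) 1.52 (0.182), 1.35 (0.0402) and 1.97 (0.0129). *Rgs5*, at 1120 and 996 CPM in WT but 156 and 255 CPM in Cdh2-cKO single positive cells, was called with the covariate (1.85, 0.0164) and had an adjusted p of 0.0502 with the block.

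The fibroblast list holds general fibroblast markers, among them the type VI collagens. Of 19 tested 0 passed with genotype alone, 4 were higher with the block and 9 with the covariate, 3 of them in both. Block and covariate together gave 1 call, voom 0 and DESeq2 0. All genes tested gave 3.74% higher with the block and 6.29% with the covariate. *Pdgfra*, the PDGF receptor of fibroblasts, was higher with the block (1.02, adjusted p = 0.0325) and not called with the covariate (1.31, 0.0608), while *Col6a1* and *Col6a2* were higher in both fits (1.29 and 1.35 with the block, 1.86 and 1.96 with the covariate). Within the osteoblast lineage list, which the Osx driver brings to mind, 6 of 14 genes tested had a positive log2 fold change (median -0.08), 0 passed with genotype alone, 2 were higher with the block and 4 with the covariate. The 2 in both were *Col1a1*, which the collagen list also holds, and *Msx1*, a homeobox gene of skull bone development, at 24.1, 8.20, 4.74 and 10.5 CPM against 0.949 to 11.4 CPM (1.46, adjusted p = 0.0340, and 2.41, 0.0136). *Runx2*, which acts upstream of *Sp7*, was higher with the covariate (0.86, adjusted p = 0.0353) and not with the block (0.51, 0.192), and *Cdh11*, a mesenchymal cadherin, likewise (1.85, 0.0151, and 1.26, 0.0689).

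**Figure D5:**
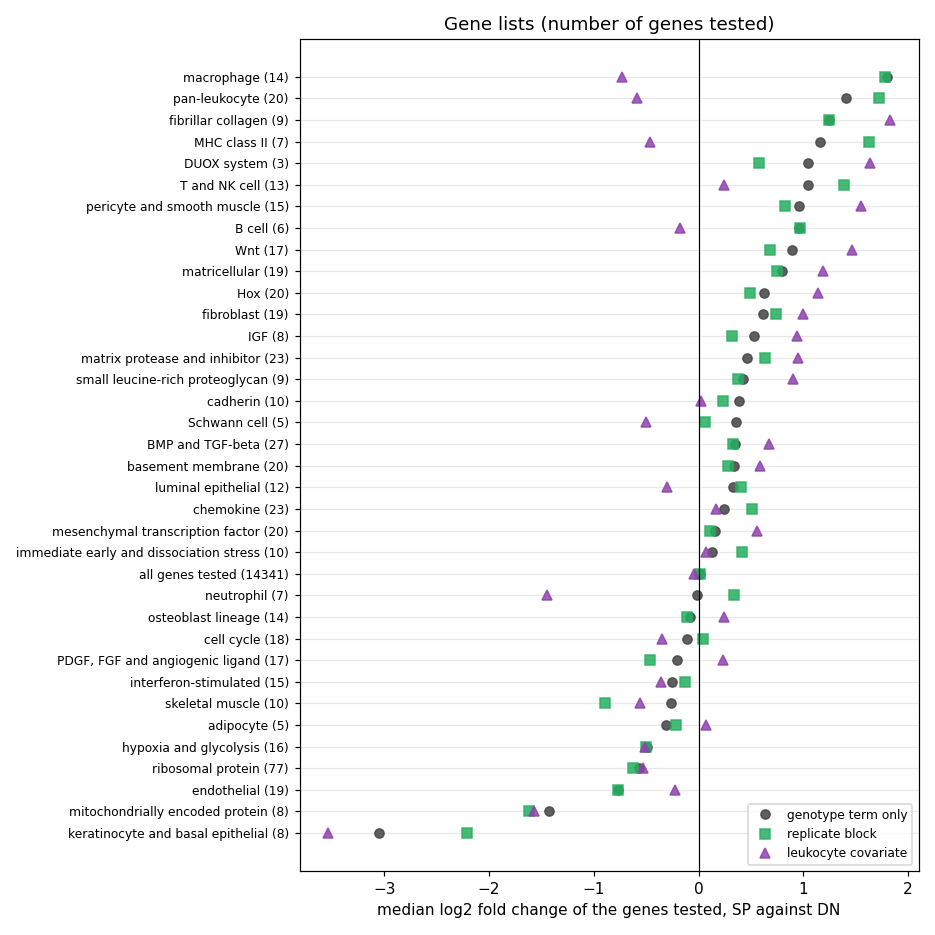
Median log2 fold change of the genes tested in each list, TdTOSX single positive (SP) against double negative (DN), with genotype alone (grey), the replicate block (green) or the leukocyte covariate (purple); the number of genes tested stands beside each list. The macrophage median turns from 1.80 to -0.73 with the leukocyte covariate, while that of the fibrillar collagens goes from 1.24 to 1.83.

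Signaling genes were described by pathway. Of 27 BMP and TGF-beta genes 0 passed with genotype alone, 5 were higher with the block and 7 with the covariate, and 4 in both, among them the ligand *Tgfb2*, the receptor *Tgfbr1* and the activin-binding *Fstl3*. Higher shares over all genes tested were 3.74% with the block and 6.29% with the covariate. Together the block and the covariate gave 0 calls in this list, voom 0 and DESeq2 2. *Tgfb2* was at 88.6, 93.6, 35 and 80.5 CPM in single positive and 6.25 to 46.3 CPM in double negative libraries (1.10 with the block, adjusted p = 0.0334, and 1.91 with the covariate, 0.0129). *Tgfbr1* did not overlap between the populations, at 51.8 to 99.4 CPM against 17.6 to 49.9 CPM (1.36, adjusted p = 0.0208, and 1.03, 0.0483). Of all genes tested 2.33% lay above without overlap. CD45+ libraries also held *Tgfbr1*, at medians of 88.4 CPM (double positive) and 81.6 CPM (CD45 single positive). The part of leukocyte RNA in its difference was not tested beyond the covariate. *Fstl3* shares 47.3% of its exonic bases with a gene on the other strand.

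Of 17 Wnt pathway genes 4 were higher with the block and 6 with the covariate, 3 of them in both: the ligands *Wnt5a* (0.68, adjusted p = 0.0477, and 1, 0.0329) and *Wnt2b* (1.48, 0.0420, and 1.93, 0.0163) and the secreted *Dkk3* (1.27, 0.0176, and 1.73, 0.0165). *Dkk3* was at 836, 548, 342 and 387 CPM in single positive and 58.2 to 461 CPM in double negative libraries. In the Wnt list 1 gene was called with the block and the covariate together, 0 by voom and 1 by DESeq2. The IGF list had 2 of 8 genes higher with the block and 3 with the covariate, the Hox list 1 higher and 1 lower of 20 with the block and 6 higher with the covariate, and the list of mesenchymal transcription factors 1 and 5 higher of 20. Of 17 PDGF, FGF and angiogenic ligands 1 was higher and 1 lower with the block, and 2 were higher with the covariate. No chemokine of 23 and no interferon-stimulated gene of 15 was higher in either fit, and 2 of the latter were lower with the covariate. In the cell cycle list 0 of 18 passed with the block and 2 were lower with the covariate, and in the cadherin list 1 of 10 was higher and 1 lower with the covariate. Over all genes tested 3.74% were higher and 2.96% lower with the block, and 6.29% and 3.86% with the covariate. In lists of this size 1 call is near those shares and was not read as a result about the list.

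Endothelial genes lay on the other side. Of 19 tested 16 had a negative log2 fold change (median -0.77), 2 were lower with the block and 0 with the covariate, where the median was -0.23. All genes tested gave 2.96% lower with the block and 3.86% with the covariate. *Pecam1* (CD31) was at 31.2, 74.5, 39.5 and 28.2 CPM in single positive cells and at 82.0, 93.6 and 21 CPM in WT and 89.6, 35.4 and 194 CPM in Cdh2-cKO double negative cells, with -0.98 (adjusted p = 0.408), -0.83 with the block (0.0498) and -0.68 with the covariate (0.475). *Cdh5*, VE-cadherin, was not called in any of these fits (-1.21, -1.06 and -0.35). Genes of hypoxia and glycolysis were negative in 16 of 16 members (median -0.49), with 0 called with genotype alone, 1 lower with the block and 5 lower with the covariate. *Pgk1*, phosphoglycerate kinase, was lower in both fits (-0.78 in each, adjusted p of 0.0340 and 0.0284), at 43.7, 46.6, 79.5 and 60.5 CPM against 67.3 to 117 CPM, while *Car9*, the hypoxia-induced carbonic anhydrase, at 2.33, 37.4, 90.1 and 34.3 CPM against 51.1 to 215 CPM, was not called with either term alone (-2.53 with the block, adjusted p = 0.183, and -2.67 with the covariate, 0.0585). It was lower with the block and the covariate together (-4.58, adjusted p = 0.0272) and by DESeq2 (-2.03, 0.022).

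Keratinocyte and basal epithelial genes were low throughout. All 8 genes tested had a negative log2 fold change, with 1 lower with the block and 2 with the covariate, and 6 of the 12 genes of the list were at or under 3 counts in each of the 4 single positive libraries. Of 12 luminal epithelial genes tested 0 was called with the block, and 1 was higher and 1 lower with the covariate. The skeletal muscle and adipocyte lists each had 1 gene higher in both fits (*Des* and *Lpl*), and the Schwann cell list had 0. Shares over all genes tested were 3.74% higher and 2.96% lower with the block, and 6.29% and 3.86% with the covariate.

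Most leukocyte lists had a negative median once their own level was a covariate, which is built from the pan-leukocyte list. The pan-leukocyte median went from 1.41 with genotype alone and 1.72 with the block to -0.59, the MHC class II median from 1.16 and 1.63 to -0.46, and the neutrophil median from -0.02 and 0.34 to -1.45. The B cell median went to -0.18, while the T and NK cell list kept a positive median of 0.24. Of its 13 genes tested 9 were positive with the covariate, but *Cd3e* had -0.65 (adjusted p = 0.526). The T and NK cell list shares *Thy1* with the fibroblast list. It summed to 508.9 CPM in WT single positive replicate 1, at a leukocyte level of 3.75%, against a median of 99.15 CPM in CD45+ libraries. The B cell list holds *Ebf1*, which stromal cells also express, at 291, 178, 111 and 300 CPM in single positive and 32.7 to 167 CPM in double negative libraries, and which was higher in both fits (adjusted p of 0.0389 and 0.0129). *Ptprc* itself had 1.33 with genotype alone (adjusted p = 0.741) and -0.64 with the covariate (0.236).

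Among the genes called with the leukocyte covariate and not with genotype alone, the 10 with the smallest adjusted p were *Eva1b*, *Sdc1*, *Gpc4*, *Fkbp1a*, *Il3ra*, *Ptk7*, *Tspan3*, *Dda1*, *Trp53i13* and *Fndc1*. *Sdc1* and *Gpc4* encode the cell surface heparan sulfate proteoglycans syndecan 1 and glypican 4, and *Ptk7* a Wnt co-receptor of planar cell polarity. *Sdc1* was at 425, 254, 222 and 340 CPM in single positive and 43 to 213 CPM in double negative cells (1.67 with the covariate, standard error 0.192, adjusted p = 0.00947). *Gpc4* was at 79.4, 56.7, 36.6 and 57.7 CPM against 8.21 to 34 CPM (1.65, adjusted p = 0.00947) and *Ptk7* at 189, 98.3, 79.3 and 110 CPM against 12 to 66.9 CPM (2.05, 0.00947). In *Eva1b*, *Sdc1*, *Gpc4*, *Fkbp1a*, *Il3ra*, *Ptk7*, *Dda1* and *Trp53i13* the populations did not overlap, and these 8 were also higher with the block. The 10 genes were chosen by a fit to the same libraries, so neither trait is separate evidence. Of all genes tested 2.33% lay above without overlap, and 33.7% of the covariate calls were shared with the block.

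Ribosomal protein genes, a group chosen after lower genes such as *Rpl4* had been seen and so given as a description, took 1.66, 1.96, 1.94 and 2.01% of the counts in single positive libraries and 3.08, 3.00 and 2.09% in WT and 3.40, 2.65 and 2.53% in Cdh2-cKO double negative libraries. The populations did not overlap, though the gap was narrow (2.01% against 2.09%). Many of these genes have near-identical processed copies, to which uniquely aligned reads can be lost, so their levels are uncertain. Of 77 ribosomal protein genes tested 74 had a negative log2 fold change (median -0.57), which the choice of the group partly fixed. With genotype alone 0 of them were called, with the block 28 were lower and 1 higher, with the covariate 16 were lower and 1 higher, and with the block and the covariate together 0 were called. Lower shares over all genes tested were 2.96% with the block and 3.86% with the covariate.

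Of the lower genes named earlier, *Rpl4* had -0.82 with the block (adjusted p = 0.0229) and -0.75 with the covariate (0.0164), and *Gtpbp4* had -0.82 (0.0328) and -0.89 (0.0129). Further genes, chosen after their values were seen, were the nucleolar *Npm1* (347, 485, 554 and 529 CPM against 598 CPM or more), *Brix1* (111, 126, 136 and 118 CPM against 175 to 246 CPM) and *Rpl3* (136 to 207 CPM against 216 to 312 CPM). In these 3 the populations did not overlap, as in 2.15% of all genes tested, and each was lower with the block and with the covariate. None of the 5 was called with the block and the covariate together (adjusted p of 0.0819 to 0.184).

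Mitochondrially encoded genes, *mt-Co1* among them, were likewise chosen after values had been seen and are given as a description. They too took a smaller share, at 1.38, 4.00, 2.02 and 2.20% of the counts in single positive libraries and 4.33, 13.7 and 5.45% in WT and 10.6, 7.89 and 2.99% in Cdh2-cKO double negative libraries. Their share was lower in the single positive library of all 4 pairs. *mt-Co1*, a subunit of complex IV read from the mitochondrial genome, was at 2240, 6510, 3630 and 3650 CPM against 5000 to 22000 CPM, with -1.51 (adjusted p = 0.177), -1.69 with the block (0.0149) and -1.72 with the covariate (0.0479). It went the other way from *Cox5a*, the nuclear-encoded subunit of the same complex, which was higher in both fits (2.65, adjusted p = 0.0181, and 2.17, 0.0129). The CD45+ libraries held 1.79 to 4.19% mitochondrially encoded and 1.57 to 2.72% ribosomal protein counts.

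Base composition moved with the population too. The mean GC content of transcripts, weighted by CPM, was 49.9 to 50.5% in single positive and 48.6 to 49.9% in double negative libraries. Genes called higher in both adjusted fits had a median GC content of 54.7% and those called lower 48.0%, against 50.4% over all genes tested, and the log2 fold change with genotype alone had a Spearman correlation of 0.189 with GC content over 14269 genes, given as a description since all genes share the same 10 libraries. The part of base composition, mitochondrial share and leukocyte RNA in the differences described above was not tested beyond the fits given.

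Immediate early genes, which cell dissociation can induce, gave no common direction. Of 10 tested 7 had a positive log2 fold change (median 0.13), and *Junb* and *Ier2* were higher with the block and with the covariate (*Ier2* 1.14, adjusted p = 0.0184, and 1.17, 0.0146), while *Fos*, at 1110 to 1880 CPM and 1270 to 2720 CPM, was not (-0.19, 0.609, and -0.28, 0.471). Among sex-linked genes *Ddx3y*, of the Y chromosome, was at 127 and 80.6 CPM in the WT replicates 1 of the single positive and double negative cells and at 70.4 and 36.1 CPM in the Cdh2-cKO replicates 2, and at 0.482 CPM or less in the other 6 libraries. *Xist*, of the inactive X chromosome, was at 3.97 CPM in WT single positive replicate 1 and at 72.8, 62.6 and 176 CPM in the other 3 libraries with *Ddx3y*, against 118 to 195 CPM in the 6 libraries without it. The libraries with *Ddx3y* carried the same replicate numbers in both populations, and 3 of the 4 held both transcripts.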

How the data were processed

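RNA from CD45- stromal cells sorted by TdTomato was sequenced in 10 libraries (SMARTer amplified cDNA, single-end reads). The authors aligned the reads to GRCm38 with STAR 2.0.4b and counted uniquely aligned, unambiguous reads per Ensembl gene with featureCounts (1.45 in the submitters' processing notes). The deposited counts, for 41388 genes, are whole numbers without normalization. The deposited CPM and RPKM values were computed by the authors from those counts and were read only to check them (largest relative deviation 5.1e-14). CPM printed here are counts relative to each library's total. Gene symbols and exon overlaps come from GENCODE M21 (40340 IDs matched).

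Groups were taken from the library titles, which also give the replicate numbers. Genes annotated as rRNA (355; 0.421 to 5.28% of counts) were left out, as were genes that did not exceed 1 CPM in 2 or more libraries. TMM factors and edgeR 4.0.16 in R 4.3.3 (quasi-likelihood F-test, Benjamini-Hochberg adjustment) gave the main results, with population and genotype as terms; a gene was called at an adjusted p of at most 0.05. Alternatives used limma 3.58.1 (voomWithQualityWeights; the study used this weighting but compared each population with the mean of the rest), DESeq2 1.42.0, a replicate block, the log2 leukocyte level as a covariate and libraries left out. Levels of cell types were compared by exact permutation. The members, the 34 gene lists and the tests were chosen with earlier results of these data known. Named genes were *Cdh2*, *Sp7* and *Ptprc*, the 10 with the smallest adjusted p in each direction, the lead genes of the lists, called list members (at most 6 per list), the 3 with the smallest interaction p and the 10 first called with the leukocyte covariate; list members called under both adjusted fits, and other genes, were named after their values were seen.

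Samples with the same number deviated together from their group means over 14341 genes (Pearson r of 0.614, 0.232, 0.117 and 0.173 for WT 1, WT 2, Cdh2-cKO 1 and Cdh2-cKO 2), so the numbers were taken as pairs. With 2 single positive libraries per genotype their deviations mirror each other, so these 4 values are not independent. WT single positive replicate 2 correlated more with double negative replicate 3 (0.446). Replicates of a group differed far beyond counting noise (chi-square over its degrees of freedom of 47.5 to 409), so no library was merged with another. This does not show that they came from separate mice, and p-values measure the spread between these libraries. Counting limits and floors of 3 counts cover counting error only. The functions were tested on simulated data.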

Additional observations from a re-analysis of the deposited data

Results flagged for a closer look

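Among 22 groups of values (11 measures in each of the 2 populations) 2 held a library far from the others, where chance gives about 1 in 20. The leukocyte level of WT double negative replicate 3 was 63.8%, with the other 5 double negative libraries between 3.20 and 11.7%. Without that library 20 genes were called higher and 1 lower with genotype as the only other term. The summed CPM of the fibrillar collagens was 34860 in WT double negative replicate 1, with the other 5 double negative libraries between 3546 and 15210 CPM; its single positive partner, WT replicate 1, also had the highest collagen sum of its population, at 59950 CPM.

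In the 12 CD45+ libraries, which were not among those compared, *Duoxa2* was also higher in cells marked by TdTomato. Double positive (TdTOSX+;CD45+) libraries held 7.36 to 19.9 CPM and CD45 single positive (TdTOSX-;CD45+) libraries 0.579 to 1.84 CPM, with no overlap between 6 and 6 libraries. The log2 fold change was 3.28 (standard error 0.337, edgeR adjusted p = 0.00281), and this was the 1 gene called among 12931 tested there (0.00773%). *Pigx*, *Mrps34* and *Ddost* were not called in the CD45+ libraries, with log2 fold changes of 0.07, 0.42 and 0.52. Those libraries are not controls of the CD45- comparison and share none of its samples. Their labels name the same numbers of inoculated mice (4 WT and 6 Cdh2-cKO), so the mice may be the same. The result is therefore not shown to be an independent repeat. They also set the scale of the leukocyte level and entered the fit of all 22 libraries.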

How the results depend on the processing

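Calls of the main comparison (4 genes, all higher) depended on the fit. The count was 4 with RLE factors, 12 without a filter on low counts, 2 with a log2 fold change of at least 2 required, 1 without the genotype term, 10 without genes higher in CD45+ libraries, 67 with leukocyte and epithelial covariates, 118 with voomWithQualityWeights, 295 with all 22 libraries in the fit, 780 with DESeq2, 1456 with the leukocyte covariate and 150 (1 higher and 149 lower) with the 5 libraries at or under a leukocyte level of 10%, of which 1 is single positive, so that it is assumed to vary like the others. With the replicate block, that is with the numbers used as a pairing, it was 960, from 4 pairs of libraries. The block and the covariate together gave 120, and genes nearly restricted to CD45- cells (2553 genes) gave 0; these settings, and those leaving out libraries from the covariate and block fits, were chosen after seeing the data. With 1 library left out the count ranged from 1 to 21 in the main fit, from 221 to 1824 with the covariate (the others 374, 504, 622, 768, 875, 900, 1103 and 1332) and from 1 to 865 with the block (the others 2, 13, 17 and 786). *Duoxa2* was called under each of these settings that tested it with all libraries, and with any 1 library left out of the main fit. It was not among the genes nearly restricted to CD45- cells.

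The genotype difference of the effect was called for 67 genes by DESeq2, for 1 with all 22 libraries and for 0 under the other settings, the replicate block included. The level differences of leukocyte, epithelial, endothelial and fibroblast genes kept their direction and did not pass the test with TMM-normalized CPM or with any 1 library left out, over ranges of 0.61 to 1.79, -1.85 to -0.34, -0.71 to -0.08 and 0.29 to 0.65 on the log2 scale.

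Among genes named with a log2 fold change, *Ptprc* turned to -0.64 with the leukocyte covariate, -0.97 at or under 10% and -0.67 with block and covariate. *Cdh2* turned to -0.18 with voom, -0.07 with the replicate block, -0.10 with block and covariate and -0.44 among genes nearly restricted to CD45- cells. With 1 library left out it lay between -0.14 and 0.17. *Duoxa1* and *Cdh5* turned to 0.79 and 0.26 with leukocyte and epithelial covariates. The cause of these changes was not tested. Genes under about 3 counts per library could not be compared at this depth.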
